A study of Mus musculus with 18 samples.

Results

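The cornified envelope and epithelial barrier genes measured here were 90 genes of 18193 in the series. They were taken by name: small proline-rich proteins (Sprr), late cornified envelope proteins (Lce), S100 calcium-binding proteins of the S100a series, B-clade serpins (Serpinb), kallikrein proteases (Klk) and transglutaminases (Tgm), with the single genes Lor, Ivl, Flg, Cnfn, Csta1, Krtdap, Sbsn, Dmkn, Cdsn and Rptn. Each gene was read by the brightest of its probe sets (groups of array probes for one transcript) over all 18 arrays, and 71 of the 90 genes had only 1.

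Total RNA came from palate of C57BL/6J mouse embryos at embryonic day 15.5 and was hybridised to Affymetrix arrays, 6 in each of 3 groups. The controls were Tgfbr2 fl/fl, with both copies of the TGF-beta receptor gene flanked by loxP sites and no Cre, and gave anterior and posterior palate. The mutants were K14-Cre;Tgfbr2 fl/fl and gave posterior palate only. The K14 promoter drives Cre in epithelial cells, so the receptor is removed there and not in mesenchyme or muscle, and the controls carry the same floxed alleles. The question stated for the series is how epithelium and muscle fibres of the palate influence each other when this signal fails. The design text counts 5 samples in each group where the sample labels list 6, and it places controls and mutants in separate litters, so litter and genotype cannot be told apart. Neither source says whether embryos were pooled; the p-values therefore speak only of the variation among these arrays. The sex of the embryos was not determined.

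A stratified epithelium renews itself from a basal layer. Cells that leave that layer build a cornified envelope: small proline-rich and late envelope proteins, loricrin and involucrin are crosslinked by transglutaminases beneath the plasma membrane, lipids are attached outside, and proteases and their inhibitors set when the cells are shed. The oral side of the palate bears such an epithelium, and its embryonic covering periderm also switches on parts of this programme. TGF-beta signalling is known as a brake on keratinocyte growth and is needed for fusion of the palatal shelves.

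The 4 genes used as markers of this programme were Sprr1a, Sprr3, Cnfn and Csta1, and the Sprr genes sit side by side in the epidermal differentiation complex on chromosome 3. The 250 bases before the start are printed for these 4 markers and for Sprr1b, the paralogue of Sprr1a in the same complex. All 5 read higher in every mutant array than in every posterior control array, as did Serpinb3a, Tgm3 and Sbsn, whose sequences are not shown. Sequences are from RefSeq on GRCm38.p6, written 5′ to 3′ in the direction of transcription, with capitals for the AP-1 motif TGANTCA and for the TATA box letters TATAAA. All 5 genes lie on the minus strand, at chr3:92485882-92486131 (Sprr1a), chr3:92438780-92439029 (Sprr1b), chr3:92458721-92458970 (Sprr3), chr7:25369725-25369974 (Cnfn) and chr16:36131190-36131439 (Csta1).
Sprr1a: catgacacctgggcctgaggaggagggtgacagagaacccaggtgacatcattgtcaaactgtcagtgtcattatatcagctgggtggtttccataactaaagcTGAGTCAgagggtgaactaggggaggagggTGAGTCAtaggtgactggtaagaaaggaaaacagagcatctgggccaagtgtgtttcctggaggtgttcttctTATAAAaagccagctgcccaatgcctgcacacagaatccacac
Sprr1b: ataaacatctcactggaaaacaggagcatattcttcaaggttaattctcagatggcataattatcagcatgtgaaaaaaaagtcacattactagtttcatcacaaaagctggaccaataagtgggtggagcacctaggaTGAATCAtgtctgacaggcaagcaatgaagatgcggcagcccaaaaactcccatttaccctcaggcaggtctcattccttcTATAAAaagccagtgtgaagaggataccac
Sprr3: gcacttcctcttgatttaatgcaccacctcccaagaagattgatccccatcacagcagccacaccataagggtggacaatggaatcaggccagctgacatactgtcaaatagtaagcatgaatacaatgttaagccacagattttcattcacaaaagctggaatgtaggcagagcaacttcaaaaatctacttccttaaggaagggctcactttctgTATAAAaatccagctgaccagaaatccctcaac
Cnfn: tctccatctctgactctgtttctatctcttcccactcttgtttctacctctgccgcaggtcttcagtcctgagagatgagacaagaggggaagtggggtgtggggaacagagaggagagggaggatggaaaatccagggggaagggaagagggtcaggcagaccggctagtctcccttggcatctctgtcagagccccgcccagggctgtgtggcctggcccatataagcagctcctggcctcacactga
Csta1: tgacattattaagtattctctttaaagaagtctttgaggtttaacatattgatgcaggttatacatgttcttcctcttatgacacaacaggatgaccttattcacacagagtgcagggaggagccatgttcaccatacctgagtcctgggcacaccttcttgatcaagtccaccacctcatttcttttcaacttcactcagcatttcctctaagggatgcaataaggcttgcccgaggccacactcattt
In Sprr1a the AP-1 letters begin 146 and 116 bases before the start, and the TATA box letters 43 bases before it. In Sprr1b they begin 111 and 30 bases before the start. Sprr3 held a TATA box 33 bases before its start and no AP-1 match in this window. Cnfn and Csta1 held neither motif in exact form. Of the 3 not shown, the promoter entry of Sbsn held 2 AP-1 matches, and those of Serpinb3a and Tgm3 held none and 1 TATA box match each.

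Of the 90 genes, 83 had a promoter entry, which runs from 250 bases before to 50 bases after the start. On either strand, TGANTCA occurred in 21 of these 83 promoters (25.3%) and in 7.93% of 27025 promoters of that length in the table, which also holds noncoding genes. TATAAA occurred in 26 of 83 (31.3%) against 14.2%, and the KLF motif CCACCC in 39 of 83 (47%) against 30.9%. The GRHL motif AACCNGTT was found in 4 of 83 (4.82%, against 2.01%), the TFAP2 motif GCCNNNGGC in 11 (13.3%, against 16.5%) and the SMAD box CAGACA in 16 (19.3%, against 21%). Neighbouring family members share sequence, so these promoters are not independent. A match describes letters only.

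Values were RMA values on the log2 scale, so a difference of 1 is a doubling of signal. Array medians over all genes ran from 7.29 to 7.52. Of the 90 genes, 68 were dimmer than the median gene, and without detection calls a low value may be background. Epithelial genes were bright on all arrays: the mean of 16 basal and simple epithelial genes lay between 10.9 and 11.5 in anterior controls and between 10.49 and 10.97 in posterior controls. In mutants it was 8.92 on array 1 and 10.5 to 11.3 on the other 5. Tgfbr2 read 10.25, 10.45 and 10.73 (lowest, median, highest) in posterior controls and 10.63, 11.05 and 11.39 in mutants, a log2 difference of 0.55 (SE 0.13, adjusted p = 0.0088). Whether its probe set lies in the deleted part of the gene is not known here and the tissue holds many cells without Cre, so this value does not check the labels. Hybridisation and labelling spike-in controls parted arrays 1 to 3 from arrays 4 to 6 in the controls. In mutants labelling spike-ins read 7.18 to 8.84 on all 6 arrays, against 9.32 to 11.3 on all control arrays. The first 3 and the last 3 array numbers of each genotype were therefore taken as 4 array sets, none of which held both genotypes.

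Posterior palate of mutants had higher signal for a subset of the envelope and barrier genes than posterior palate of controls. The 14 genes that rose were Sprr1a, Csta1, Sprr3, Cnfn, Serpinb3a, Serpinb2, Dmkn, Krtdap, Sprr1b, Tgm3, Sbsn, Klk5, Cdsn and Lce1i, by 1.29-fold to 7.27-fold, and Serpinb7 and Klk4 fell. That is 16 of 90 genes called (17.8%), where 13.5% of all genes were called. By direction, 14 of 90 rose where 7.73% of all genes did, and 2 of 90 fell where 5.73% did. The split differed between the array sets: with mutant arrays 4 to 6 only, 9 genes were called higher and 6 lower, and with arrays 4 to 6 of every group 6 were higher and 6 lower. The median log2 difference was 0.12 over the 90 genes and 0.04 over all genes. Calls came from limma's moderated test in 1 fit over the 3 groups of 6 arrays; a gene counted as called if its p, adjusted by Benjamini and Hochberg's method over the 18193 genes, was under 0.05. Adjusted p below are from this fit unless another is named. The groups did not overlap for 8 of the 90 genes, against 6.55% of all genes.

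**Figure D1:**
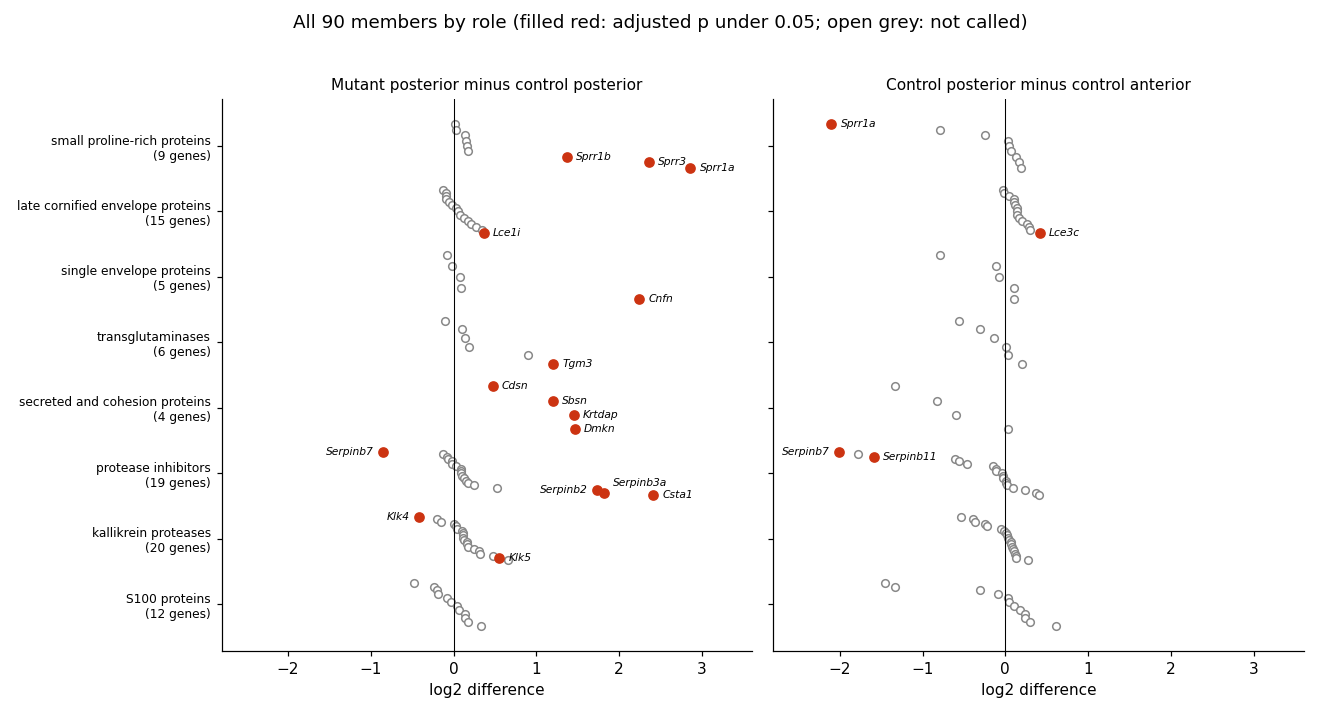
Log2 differences of all 90 genes, one point a gene, in rows by role: mutant posterior minus control posterior on the left and control posterior minus control anterior on the right. Filled red points are called (adjusted p under 0.05) and named, open grey points are not; all 4 secreted and cohesion proteins are called on the left and none of the 12 S100 proteins is called on either side.

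Among the small proline-rich proteins, which are built of short repeats that transglutaminases crosslink into the envelope, 3 of 9 rose and none fell. Sprr1a read 5.81, 6.51 and 6.90 (lowest, median, highest of 6 arrays) in posterior controls and 7.64, 9.50 and 10.87 in mutants. Every mutant array exceeded every posterior control array, and the log2 difference was 2.86 (SE 0.51, adjusted p = 0.0016), or 7.27-fold. Sprr3 read 5.45, 5.73 and 5.89 in posterior controls and 6.79, 8.08 and 9.73 in mutants, again without overlap, and was 5.14-fold higher (2.36, SE 0.39, adjusted p = 0.000977). Sprr1b, at 3.08, 3.20 and 3.38 in posterior controls and 3.41, 4.24 and 6.01 in mutants, was 2.58-fold higher (1.37, SE 0.34, adjusted p = 0.0131). Its lowest mutant array stood just above its highest control array. The 6 Sprr2 genes measured by probe sets with 1 symbol differed by 0.02 to 0.17, none at an unadjusted p under 0.05 in limma.

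Late cornified envelope proteins are late products of the same chromosome 3 complex, and 1 of 15 rose. Lce1i read 6.08, 6.19 and 6.37 in posterior controls and 6.27, 6.61 and 6.82 in mutants; the groups overlapped, and it was 1.29-fold higher (0.37, SE 0.09, adjusted p = 0.0158). Its call was lost when each array was centred on its median (adjusted p = 0.072) and under quantile normalisation (adjusted p = 0.0694). The only probe set of Lce1i is of the _x_at type, which can detect related genes. Of the others, Lce3b differed by 0.27 (adjusted p = 0.184) and Lce1f by 0.21 (adjusted p = 0.159). Over the 39 genes that lie together in this complex, Sprr, Lce and S100a genes with Lor, Ivl, Flg and Rptn among them, 4 rose, none fell and the median difference was 0.07.

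Of the 5 genes for other single envelope proteins, 1 rose. Cnfn encodes cornifelin, a small protein of the envelope. It read 5.13, 5.53 and 5.78 in posterior controls and 6.51, 7.56 and 9.16 in mutants, with no overlap, and was 4.73-fold higher (2.24, SE 0.35, adjusted p = 0.00071). Flg, the precursor of the keratin-aggregating protein filaggrin, read 2.46, 2.55 and 2.64 in posterior controls and 2.51, 2.62 and 2.82 in mutants (0.08, adjusted p = 0.447). Ivl, involucrin, an early scaffold of the envelope, differed by -0.08 (adjusted p = 0.549). Rptn, repetin, differed by -0.02 (adjusted p = 0.926). The values of these 3 genes overlapped between the groups and lay below the array medians.

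Lor encodes loricrin, the main protein of the mature envelope in skin. It read 6.58, 6.74 and 7.18 in posterior controls and 6.24, 6.78 and 7.78 in mutants, with a difference of 0.09 (adjusted p = 0.810). The mutant arrays divided by set: arrays 1 to 3 alone were 0.58 above the controls (adjusted p = 0.0183), and arrays 4 to 6 alone differed by -0.39 (adjusted p = 0.0572). With arrays 4 to 6 of every group the difference was -0.55 (adjusted p = 0.0215), and with arrays 1 to 3 of every group it was 0.74 (adjusted p = 0.0367).

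Transglutaminases form the bonds between envelope proteins, and 1 of 6 rose. Tgm3 read 5.80, 5.91 and 5.99 in posterior controls and 6.43, 6.88 and 8.23 in mutants, with no overlap, and was 2.30-fold higher (1.20, SE 0.25, adjusted p = 0.0052). Its other probe set differed by 0.17 when all probe sets were tested (adjusted p = 0.439), so the probe sets of this gene disagree. Tgm1, the membrane-bound enzyme of keratinocytes, read 6.16, 6.64 and 7.16 in posterior controls and 6.37, 7.58 and 8.54 in mutants, and its difference of 0.89 did not pass (adjusted p = 0.0816). Tgm6 differed by 0.19 (adjusted p = 0.0577).

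All 4 secreted and cohesion proteins rose. Krtdap, Dmkn and Sbsn (keratinocyte differentiation-associated protein, dermokine and suprabasin) are secreted by differentiating keratinocytes and are neighbours in the genome. Krtdap read 8.58, 9.37 and 10.08 in posterior controls and 9.64, 10.80 and 11.91 in mutants (1.45, SE 0.38, adjusted p = 0.0168), and the groups overlapped. Dmkn read 8.10, 9.40 and 10.21 in posterior controls and 9.52, 10.96 and 11.50 in mutants (1.46, SE 0.42, adjusted p = 0.0284), with overlap as well. Sbsn, at 8.35, 8.54 and 8.75 against 8.85, 9.79 and 10.78, did not overlap and was 2.30-fold higher (1.20, SE 0.27, adjusted p = 0.0083). Cdsn, corneodesmosin, which glues cornified cells together, read 5.31, 5.39 and 5.51 in posterior controls and 5.44, 5.88 and 6.19 in mutants (0.47, SE 0.11, adjusted p = 0.0086). The call of Dmkn was lost without any 1 of posterior control arrays 1, 4 and 6 or mutant arrays 2, 3 and 5 (adjusted p up to 0.0702).

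Protease inhibitors moved both ways: 3 of 19 rose and 1 fell. Csta1, a cystatin A that blocks cysteine proteases and is itself built into the envelope, read 3.09, 3.59 and 4.20 in posterior controls and 4.57, 6.15 and 7.37 in mutants. Every mutant array exceeded every posterior control array, and the difference was 2.41 (SE 0.38, adjusted p = 0.000673), or 5.32-fold. Serpinb3a, a serpin of squamous epithelium, read 3.58, 3.69 and 3.94 in posterior controls and 4.37, 5.59 and 7.15 in mutants, without overlap, and was 3.52-fold higher (1.82, SE 0.33, adjusted p = 0.0019). Its only probe set is of the _x_at type, which can detect related genes. Serpinb2, an inhibitor of plasminogen activators, read 4.06, 4.22 and 5.28 in posterior controls and 4.14, 6.52 and 7.11 in mutants (1.73, SE 0.51, adjusted p = 0.0326). Mutant array 1 was as low as the controls and the other 5 mutant arrays lay above every posterior control array. That call was lost without any 1 of posterior control arrays 1, 2, 3, 4 and 6 or mutant arrays 2, 3 and 6 (adjusted p up to 0.0712).

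Serpinb7, a serpin of keratinocytes, went the other way. It read 5.55, 6.13 and 6.59 in posterior controls and 4.61, 5.14 and 6.28 in mutants, a 1.81-fold decrease with overlapping groups (-0.86, SE 0.23, adjusted p = 0.0203). The call was lost without posterior control array 5 (adjusted p = 0.0565). Mutant arrays 1 to 3 alone differed from controls by -0.46 (adjusted p = 0.168) and arrays 4 to 6 alone by -1.25 (adjusted p = 0.000883). Serpinb1a differed by 0.53 (adjusted p = 0.0694) and Serpinb12 by 0.24 (adjusted p = 0.177), and the other probe set of Serpinb12 differed by 1.19 (adjusted p = 0.058). Serpinb5 was singled out after its values were seen: its brightest probe set differed by -0.07, and 1 of its other 3 by -1.19 (adjusted p = 0.0364).

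Kallikrein proteases, several of which cut the bonds between cornified cells, showed 1 increase and 1 decrease among 20 genes. Klk5, which starts the shedding cascade, read 4.10, 4.48 and 4.63 in posterior controls and 4.38, 4.94 and 5.62 in mutants (0.55, SE 0.17, adjusted p = 0.0402). Its call was lost in 8 of 18 fits that left out 1 array, with an adjusted p up to 0.082. Those arrays were posterior controls 1, 3, 4, 5 and 6 and mutants 2, 3 and 6. It was also lost with median centring (adjusted p = 0.0629). Klk4, an enamel protease, read 4.31, 4.73 and 4.88 in posterior controls and 4.02, 4.28 and 4.38 in mutants (-0.42, SE 0.10, adjusted p = 0.0143). Klk11 differed by 0.66 (adjusted p = 0.0512) and Klk13 by 0.48 (adjusted p = 0.0563). Of the 10 genes Klk1 and Klk1b, none passed in limma, with 2 at an unadjusted p under 0.05, and they resemble each other in sequence.

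None of the 12 S100 proteins, calcium-binding proteins that also act as alarm signals, was called in limma, and none had an unadjusted p under 0.05. Their differences ran from -0.48 to 0.33. S100a7l2 differed by -0.19 (adjusted p = 0.184) and S100a5 by 0.18 (adjusted p = 0.242). For 2 of the 12, chosen after their values were seen, mutant arrays 1 to 3 lay above and mutant arrays 4 to 6 below all posterior controls. S100a13 read 10.34, 9.88 and 10.06 on mutant arrays 1 to 3, 9.03, 9.31 and 9.15 on mutant arrays 4 to 6, and 9.46 to 9.70 on posterior controls. It was called higher with mutant arrays 1 to 3 only (0.51, adjusted p = 0.0104) and lower with mutant arrays 4 to 6 only (-0.42, adjusted p = 0.025). S100a10 did the same (0.23, adjusted p = 0.0289, and -0.29, adjusted p = 0.0178), and a second probe set of it was called lower over all arrays (-0.32, adjusted p = 0.0356).

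**Figure D2:**
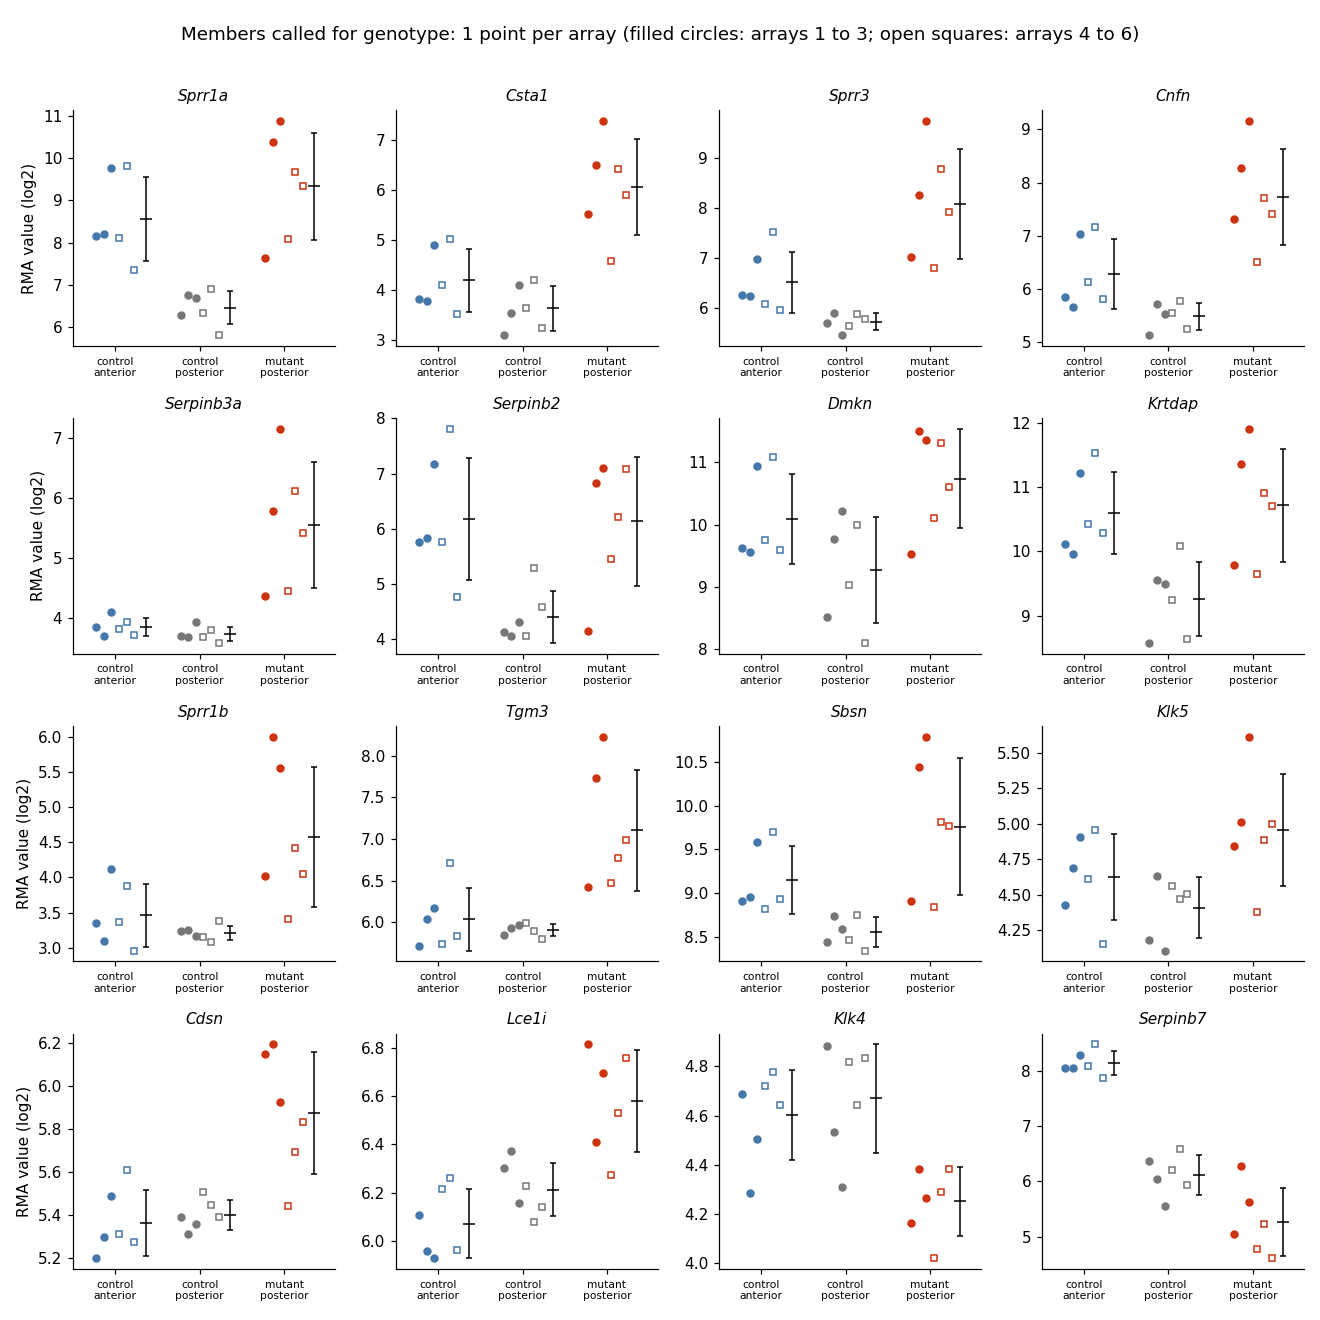
RMA values (log2) of the 16 genes called between mutant and control posterior palate, one point per array in the 3 groups, with bars for the mean ± SD of 6 arrays; filled circles are arrays 1 to 3 and open squares arrays 4 to 6. For Sprr1a, Csta1, Sprr3, Cnfn, Serpinb3a, Sprr1b, Tgm3 and Sbsn all 6 mutant arrays lie above all posterior control arrays, and for Klk4 and Serpinb7 the mutant means are lower.

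The mutant arrays differed among themselves more than the controls did. For Sprr1a the SD over 6 arrays was 1.26 in mutants and 0.40 in posterior controls, for Cnfn 0.91 and 0.25, and for Serpinb3a 1.05 and 0.12. Over all genes the median SD was 0.233 in mutants and 0.128 in posterior controls. Mutant arrays 2 and 3 were the highest for Sprr1a, at 10.37 and 10.87, and arrays 1 and 4 the lowest, at 7.64 and 8.08. The mean of the 4 markers ran from 6.49 to 9.28 on the mutant arrays, from 5.01 to 5.69 in posterior controls and from 5.66 to 7.38 in anterior controls. Left out of the fit, mutant array 1, which had the low epithelial mean, gave 20 genes called (22.2%, against 11.5% of all genes) with all 16 among them.

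With the 4 array sets as a random block, 5 of the 16 calls remained (5.56% of the 90, against 3.23% of all genes): Cnfn (adjusted p = 0.0156), Csta1 (0.0174), Sprr3 (0.0263), Sprr1a (0.0369) and Serpinb3a (0.0407). No set held both genotypes, so genotype was compared between sets. This fit used 1 correlation of 0.262 within sets for all genes and counted degrees of freedom by array. Its adjusted p may therefore be too small. Against control arrays 1 to 3 only, none of the 90 genes was called in limma, with 18 at an unadjusted p under 0.05 and a lowest adjusted p of 0.054 for Csta1. In that fit 0.742% of all genes were called. Against control arrays 4 to 6 only, 5 were called (5.56%, against 5.54% of all genes). Mutant arrays 1 to 3 alone gave 33 calls (36.7%, against 27.4% of all genes), 30 higher and 3 lower, with 14 of the 16 kept. Mutant arrays 4 to 6 alone gave 15 calls (16.7%, against 18.2%), 9 higher and 6 lower, with 11 kept. Arrays 4 to 6 of every group gave 12 calls (13.3%, against 18.4%), 6 higher and 6 lower. The 16 genes kept their sign in each of these fits, which reuse the arrays that the calls came from. For Sprr1a the difference was 3.16 with mutant arrays 1 to 3 and 2.56 with arrays 4 to 6.

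**Figure D3:**
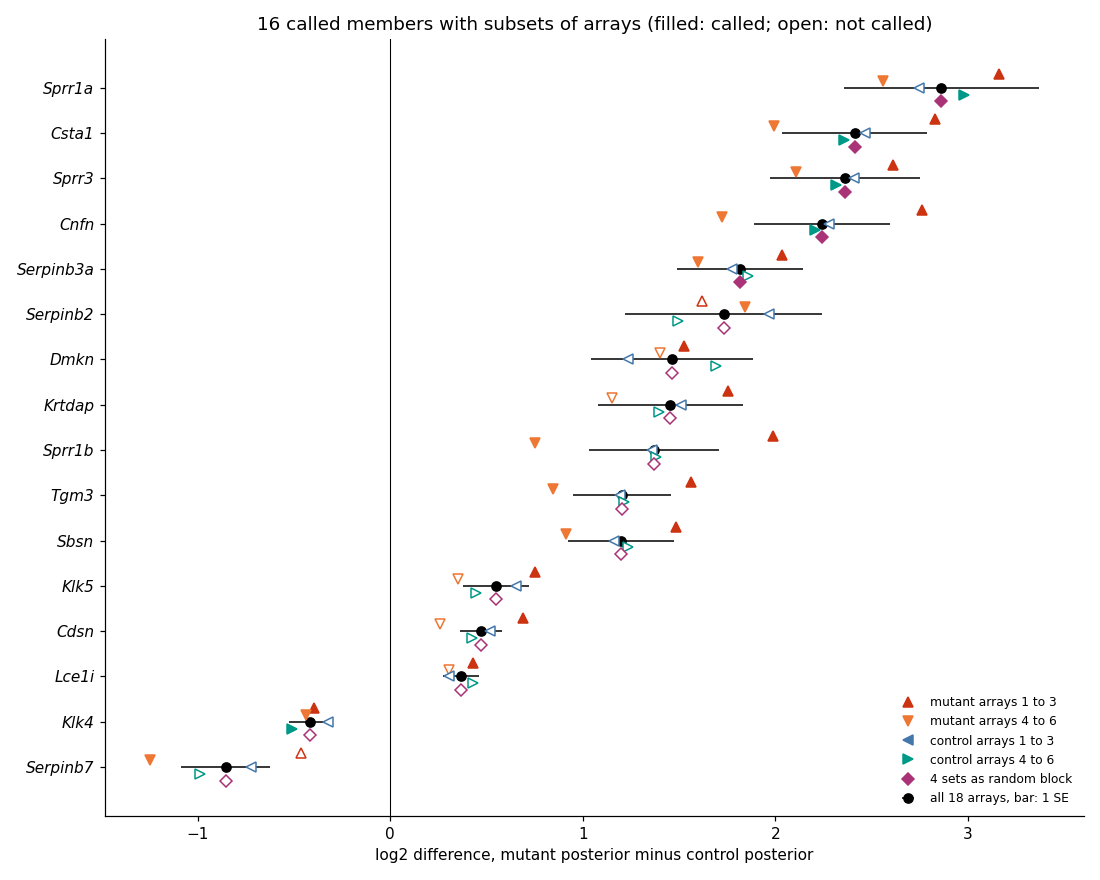
Log2 difference between mutant and control posterior palate for the 16 called genes, from all 18 arrays (black, bar of 1 SE), from mutant or control arrays 1 to 3 or 4 to 6 alone, and with the 4 array sets as a random block; filled symbols are called and open symbols are not. The signs agree for each gene, all picked by calls on these same arrays, and with control arrays 1 to 3 alone all 16 symbols are open.

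The tissue was whole palate, in which more cells of a type and more RNA per cell cannot be told apart. None of the 16 basal and simple epithelial genes was called for genotype in limma (2 at an unadjusted p under 0.05), with a median difference of -0.24 and 14 of 16 below 0. Their mean was 8.92 on mutant array 1 and 10.5 to 11.3 on the other mutant arrays, against 10.49 to 10.97 in posterior controls. Krt14, the basal keratin whose promoter drives Cre, differed by -0.29 (adjusted p = 0.522), its partner Krt5 by 0.55 (adjusted p = 0.164) and the adhesion protein Cdh1 by -1.07 (adjusted p = 0.0871). Cdh1 read 8.25 on mutant array 1, 10.42 to 11.74 on the other mutant arrays and 11.52 to 12.04 in posterior controls. With the mean of these epithelial genes as a covariate, 22 of the 90 genes were called (24.4%, against 13.9% of all genes). All 16 genes called in the main fit were among them, and the difference of Sprr1a was 3.24. Mutant array 1 lies far from the other arrays on this covariate. Serpinb11 was called in that fit, with a difference of 0.43 (adjusted p = 0.0418). Of 13 skeletal muscle genes 1 rose, the muscle kinase gene Ckm (2.36, adjusted p = 0.0099), all 13 differences were above 0 and the median was 0.74. The mean of the muscle genes ran from 9.85 to 11.1 in posterior controls and from 9.84 to 12.5 in mutants. With it as a covariate 18 genes were called (20%, against 8.83% of all genes). Of the 16 calls of the main fit 15 were kept, the exception being Serpinb7 (adjusted p = 0.0534).

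Markers of other cells that the dissection could hold were read on the same arrays. Of 10 neutrophil and granule genes, 1 rose, Ltf (1.60, adjusted p = 0.0268), whose product lactoferrin is also made by glands. The mean of these genes ran from 4.96 to 5.61 in posterior controls and from 5.23 to 5.84 in mutants. Of 9 macrophage and leukocyte genes, 2 rose, Csf1r (0.53, adjusted p = 0.0489) and Cx3cr1 (0.37, adjusted p = 0.0435), and C1qb fell (-0.68, adjusted p = 0.0013). Of 11 nasal and salivary secretory genes, 3 fell: Bpifa1 (-1.68, adjusted p = 0.0475), Reg3g (-1.60, adjusted p = 0.0183) and Muc5b (-0.34, adjusted p = 0.0399). None of 9 palate mesenchyme genes passed (3 at an unadjusted p under 0.05), the lowest adjusted p being that of Barx1 (-0.61, adjusted p = 0.0643). Their mean ran from 9.13 to 9.45 in posterior controls and from 8.43 to 9.50 in mutants. Picked after the values were seen, Msx1 read 9.83 on mutant array 1, against 6.11 to 7.14 in posterior controls. Pax9 read 5.73 on that array, against 8.93 to 9.39. Of the 7 calls in these marker lists, 5 were lost when some single array was left out. The call was lost in 15 of the 18 fits that left out 1 array for Bpifa1 (adjusted p up to 0.0923), in 13 for Csf1r (up to 0.102), in 12 for Cx3cr1 (up to 0.0951), in 8 for Muc5b (up to 0.102) and in 3 for Ltf (without posterior control array 4 or 6 or mutant array 3, up to 0.0672). Those 5 calls and that of Reg3g were also lost with the compared groups only and with the random block, where that of C1qb remained (adjusted p = 0.0259). The part of these cells in the barrier genes' differences was not tested.

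The wider keratinocyte programme, read from lists chosen by function, showed changes in some groups. Of 13 suprabasal and stress keratins, 4 rose and none fell, with a median of 0.57. The largest was Krt6b, a keratin of stressed and fast-renewing epithelium, at 4.72, 5.16 and 5.44 in posterior controls and 5.58, 9.52 and 10.24 in mutants, a 12.8-fold increase (3.68, SE 0.70, adjusted p = 0.0026). Krt13 and Krt4, the keratin pair of soft oral epithelium, rose by 2.38 (adjusted p = 0.0055) and 1.81 (adjusted p = 0.0025). None of these 3 keratins overlapped between the groups.

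Among 12 other barrier proteases and inhibitors, Spink5 and Ctsd rose. Spink5, whose product holds kallikreins in check, read 3.29, 3.42 and 3.55 in posterior controls and 4.40, 5.65 and 6.58 in mutants (2.24, SE 0.31, adjusted p = 0.000254). Ctsd, the lysosomal protease cathepsin D, rose by 0.30 (adjusted p = 0.0096). Of 14 desmosome and scaffold genes 1 rose, Dsg1a, an adhesion protein of the upper layers (1.63, adjusted p = 0.0092), and the median was -0.04. Of 13 barrier lipid genes 2 rose, Ugcg (0.45, adjusted p = 0.0363) and Elovl1 (0.37, adjusted p = 0.0151), enzymes of glucosylceramide and long-chain lipid synthesis. With the most variable probe set of each gene both differences fell below 0 and neither was called. The call of Ugcg was also lost in 6 of the 18 fits that left out 1 array (adjusted p up to 0.0764).

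Of 16 transcription factors of epidermal differentiation, 2 rose and 1 fell. Prdm1, a repressor active in terminal differentiation, read 5.42, 5.61 and 5.82 in posterior controls and 6.08, 6.31 and 6.73 in mutants, without overlap (0.74, SE 0.10, adjusted p = 0.000223). Hopx rose by 1.10 (adjusted p = 0.0183), and Cebpb fell by 0.40 on the log2 scale (adjusted p = 0.0384). The Cebpb call was lost when its probe sets were averaged (adjusted p = 0.0761), when the most variable one was used (0.141) and in 8 of the 18 fits that left out 1 array (up to 0.097, without posterior control array 4). Of 11 tight junction genes none rose and 1 fell, Cldn6, a claudin of embryonic epithelium (-1.50, adjusted p = 0.0074). With the array sets as a random block, only Prdm1 (adjusted p = 0.0085) and Spink5 (0.0082) kept their call among the named keratin, protease, desmosome, lipid, transcription factor and tight junction genes. The limit given above for that fit holds for every call kept in it.

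**Figure D4:**
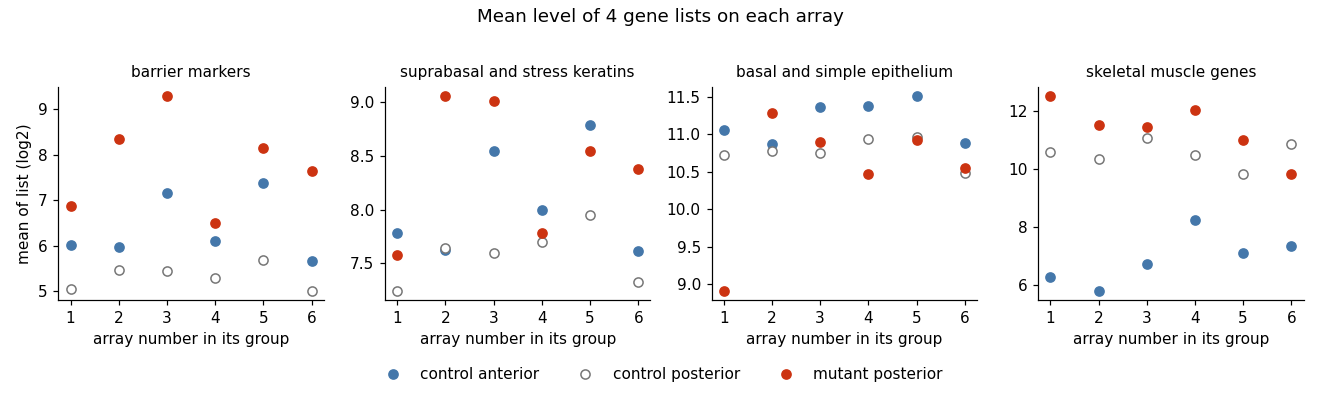
Mean RMA value (log2) of 4 gene lists on each array, by array number within its group, for control anterior (blue), control posterior (open) and mutant posterior (red). The 4 barrier markers lie at 6.49 to 9.28 on mutant arrays and at 5.01 to 5.69 on posterior control arrays, mutant array 1 is the lowest for basal and simple epithelium at 8.92, and the muscle genes of anterior controls lie below both posterior groups.

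Between the regions of the control palate, posterior tissue had less Serpinb7, Sprr1a and Serpinb11 than anterior tissue and slightly more Lce3c. That is 4 of 90 genes called (4.44%), where 3.82% of all genes were called: 1 rose (1.7% of all genes) and 3 fell (2.12% of all genes) from anterior to posterior. The median difference over the 90 genes was 0.03 and over all genes -0.02. The fit behind these values did not pair the controls, and no paired fit of the controls alone was run. The replicate number was also taken as a block over all 18 arrays, mutants included. That gave 7 calls, the same 4 with Krtdap, S100a6 and Serpinb2 (7.78%, against 3.72% of all genes). With each array centred on its median, 8 were called, 5 higher and 3 lower (8.89%, against 3.52%). The groups did not overlap for 8 of the 90 genes, against 6.32% of all genes; those not called were Klk10, Klk11, Sbsn and Sprr3, named after their values were seen.

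Serpinb7 read 7.86, 8.07 and 8.48 (lowest, median, highest) in anterior controls and 5.55, 6.13 and 6.59 in posterior controls. The groups did not overlap, and posterior palate was 4.04-fold lower (-2.01, SE 0.23, adjusted p = 5.01e-05). It was called in each of the 18 fits that left out 1 array. Serpinb11, another serpin of the same gene cluster, read 10.19, 10.42 and 11.12 in anterior controls and 8.67, 9.00 and 9.15 in posterior controls, 3.01-fold lower without overlap (-1.59, SE 0.38, adjusted p = 0.0235). Its call was lost without anterior control array 3 (adjusted p = 0.0537) or 5 (0.0534) or posterior control array 6 (0.0619).

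Sprr1a read 7.36, 8.19 and 9.82 in anterior controls, where arrays 3 and 5 stood above the rest at 9.76 and 9.82, and 5.81, 6.51 and 6.90 in posterior controls. No posterior control array reached an anterior one, and the difference was 4.29-fold (-2.10, SE 0.51, adjusted p = 0.0256). The call was lost without anterior control array 3 (adjusted p = 0.0641) or 5 (0.0587) and without posterior control array 4 (0.0565) or 6 (0.0728). Lce3c read 7.01, 7.29 and 7.34 in anterior controls and 7.42, 7.67 and 7.82 in posterior controls, a 1.33-fold increase without overlap (0.42, SE 0.09, adjusted p = 0.0111). The only probe set of Lce3c is of the _x_at type as well.

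Several genes called for genotype had lower means in posterior than in anterior controls without passing the region test of the main fit. Krtdap read 9.97, 10.36 and 11.53 in anterior controls (-1.33, adjusted p = 0.0577) and Serpinb2 4.76, 5.80 and 7.81 (-1.78, adjusted p = 0.0624). With the replicate block these became called, with adjusted p = 0.0159 and 0.0454. Sprr3 differed by -0.78 (adjusted p = 0.274), Cnfn by -0.79 (adjusted p = 0.226), Csta1 by -0.56 (adjusted p = 0.436) and Sbsn by -0.59 (adjusted p = 0.238). The spread used in the main fit includes the more variable mutant arrays. With the compared groups only, 17 of the 90 genes were called for region (18.9%, against 11.8% of all genes). Krtdap, Serpinb2, Sprr3 and Sbsn were among them, and Cnfn and Csta1 were not. For Sprr1a, Serpinb2 and Krtdap, anterior control arrays 3 and 5 were the highest of their group.

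S100a8 and S100a9, which form the alarm protein calprotectin, are given because their spread among anterior controls stood out after the values were seen. S100a8 read 7.21, 9.18 and 11.07 in anterior controls, 7.11, 7.60 and 9.08 in posterior controls and 6.05, 6.94 and 9.57 in mutants. S100a9 read 5.80, 7.72 and 10.32, then 5.57, 6.35 and 8.37, then 4.93, 6.13 and 8.74 in the same order. All 3 groups overlapped, and the region differences of -1.46 and -1.33 did not pass (adjusted p = 0.263 and 0.402). The mean of the neutrophil genes ran from 5.03 to 6.35 in anterior controls and from 4.96 to 5.61 in posterior controls; its part in these values was not tested.

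**Figure D5:**
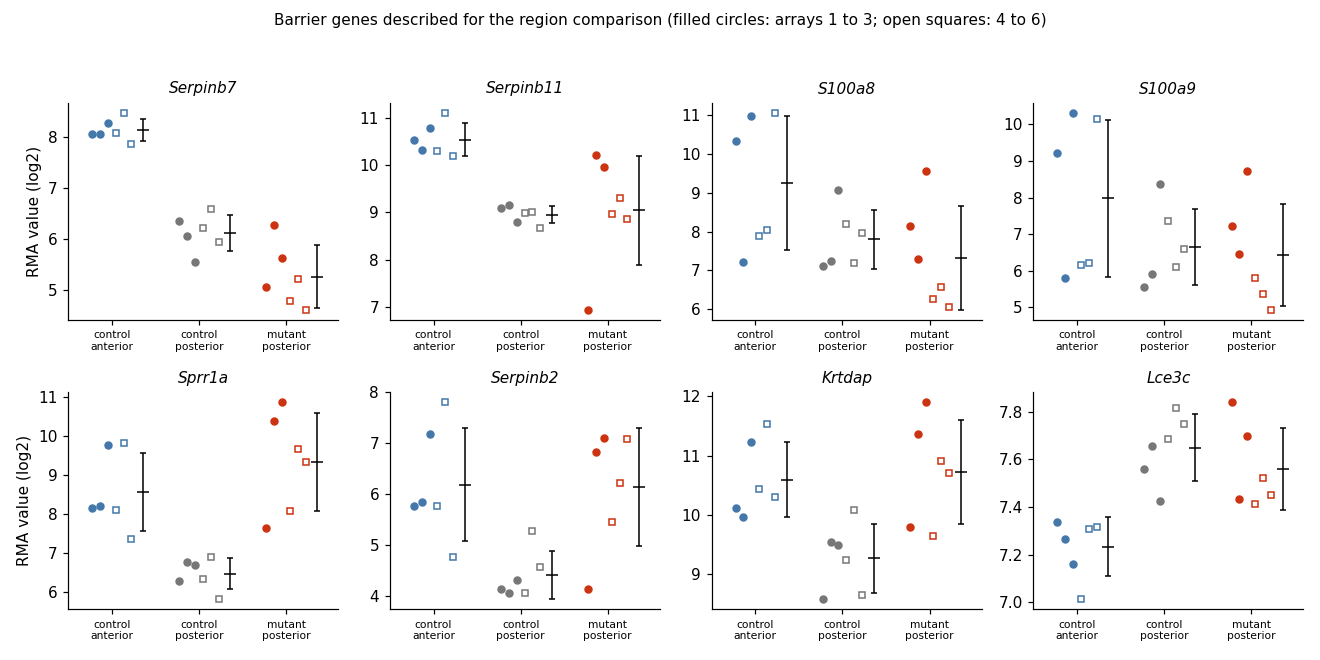
RMA values (log2) of 8 barrier genes on each array of the 3 groups, with bars for the mean ± SD of 6 arrays; filled circles are arrays 1 to 3 and open squares arrays 4 to 6. Serpinb7, Serpinb11 and Sprr1a are higher in all anterior than in all posterior control arrays, Lce3c is lower, and S100a8 runs from 7.21 to 11.07 in anterior controls.

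Muscle gene signal also differed between the regions. All 13 muscle genes rose from anterior to posterior, with a median of 3.91, and their mean ran from 5.82 to 8.27 in anterior and from 9.85 to 11.1 in posterior controls. With that mean as a covariate none of the 90 genes was called in limma (7 at an unadjusted p under 0.05). Of all genes 0.159% were called in that fit, against 3.82% without the covariate. The muscle mean did not overlap between the regions, so this fit can hardly separate muscle from region. The part of muscle content in the region differences was not tested. Serpinb7 then differed by -1.99 (adjusted p = 0.223), Sprr1a by -0.64 (adjusted p = 0.854) and Serpinb11 by -0.59 (adjusted p = 0.814). Of the 16 epithelial genes 2 fell from anterior to posterior, and the median difference was -0.27. With the epithelial mean as a covariate 7 genes were called (7.78%, against 4.71% of all genes), the same 4 among them. Control arrays 1 to 3 alone gave 1 call, Serpinb7 (adjusted p = 0.0277), and control arrays 4 to 6 alone gave none, with 8 genes at an unadjusted p under 0.05.

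The order of the 3 groups differed from gene to gene. Both comparisons above use the posterior controls, so the mutant posterior palate was also set against the anterior controls. In that comparison, added after the other 2 were seen, 26 of the 90 genes were called (28.9%) where 27.2% of all genes were. By direction, 23 of 90 were higher in mutants where 13.9% of all genes were, and 3 of 90 were lower where 13.3% were. The groups did not overlap for 8 of the 90, where 9.83% of all genes did not. For Sprr1a, Serpinb2, Krtdap, Dmkn, Sbsn and Klk5 the difference from anterior controls did not pass, at 0.76 (SE 0.51, adjusted p = 0.276), -0.05 (SE 0.51, adjusted p = 0.955), 0.13 (SE 0.38, adjusted p = 0.830), 0.64 (SE 0.42, adjusted p = 0.266), 0.61 (SE 0.27, adjusted p = 0.108) and 0.33 (SE 0.17, adjusted p = 0.153). With these errors the data do not settle which of the groups is higher.

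Another 8 genes called for genotype were called higher in mutant posterior palate than in either control region in the main fit. Csta1 was 3.62-fold above anterior controls (1.86, adjusted p = 0.0018), Serpinb3a 3.24-fold (1.70, adjusted p = 0.0013), Sprr3 2.98-fold (1.58, adjusted p = 0.0067) and Cnfn 2.74-fold (1.46, adjusted p = 0.0059). Sprr1b (1.12, adjusted p = 0.021), Tgm3 (1.07, adjusted p = 0.0052), Cdsn (0.51, adjusted p = 0.0025) and Lce1i (0.51, adjusted p = 0.000899) were higher too. Of these 8 genes, only Serpinb3a and Lce1i did not overlap with the anterior controls. Sprr1b, Tgm3, Cdsn and Lce1i lost their genotype call with the array sets as a random block (adjusted p = 0.0929, 0.0618, 0.0586 and 0.133). Mutant posterior and control anterior palate differ in region and genotype and share no array set, so these cannot be told apart.

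Serpinb7 was highest in anterior controls, lower in posterior controls and lowest in mutants, with means of 8.13 ± 0.21, 6.12 ± 0.36 and 5.26 ± 0.61 (SD, n = 6 each). Its mutant level was 7.31-fold below that of anterior controls (-2.87, adjusted p = 3.73e-07). Serpinb11 was low in both posterior groups, with means of 8.95 ± 0.18 in controls and 9.04 ± 1.17 in mutants, which did not differ beyond their spread (0.09, adjusted p = 0.906). Its mutant array 1 read 6.93 and the other 5 read 8.86 to 10.22. Lce3c was higher in both posterior groups, at 7.65 ± 0.14 in controls and 7.56 ± 0.17 in mutants, against 7.23 ± 0.12 in anterior controls.

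The genes were also counted by where they lie in the genome. Groups of neighbours were taken as barrier genes with at most 10 protein-coding genes between them in the RefSeq table. All 3 genes of the Krtdap, Dmkn and Sbsn group rose in mutants. Of the 7 genes around Serpinb11, 2 rose and 1 fell, whereas none of the 11 around Serpinb1a passed in limma, with 1 at an unadjusted p under 0.05. Of 19 kallikrein genes in 1 cluster, 1 rose and 1 fell. The 58 barrier genes not named by rule differed by -0.48 to 0.34 for genotype, and 4 had an unadjusted p under 0.05 in limma. That none of the 58 was called follows from the rule, which named every called gene.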

How the data were processed

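The deposited values were on the log2 scale for 45101 probe sets; the authors made them with RMA, per the submitters' processing notes, version not given. RMA corrects background and equalises the distributions of the arrays, which would hide a shift common to most genes. Detection calls were not used here. The number of arrays limits the precision. By the platform annotation, 34945 probe sets had 1 symbol, 932 several and 9211 none listed, and 64 control probe sets were left out. The brightest probe set with 1 symbol stood for each of 18193 genes, with no filter on dim genes. All 90 barrier genes matched RefSeq. Of these, 10 rest on _x_at and 5 on _s_at probe sets, which can detect related genes, and 7 family probe sets with several symbols were left out.

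Groups and array numbers came from the sample titles. Differences were tested 2-sided with limma 3.58.1 (lmFit, eBayes; R 4.3.3, statmod 1.5.0) in 1 fit over 3 groups with 15 residual degrees of freedom. The fit was tested on simulated data with 1 SD per gene for all groups and no array sets, unlike the data here. Figures used matplotlib 3.10.9 in Python 3.11.15.

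Genes and lists were chosen with earlier results of these data known. Named were the 4 markers, the single genes, every gene called in either comparison, the 2 uncalled genes with the smallest genotype p in each of 6 roles, from each list up to 3 called genes with the largest genotype difference or else the 1 with the smallest p, and Tgfbr2, Krt5, Krt14 and Cdh1. Sequences came from RefSeq promoter tables, at the first listed start.

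Equal array numbers were checked for pairing through the correlation of deviations from group means over genes. It was 0.111 to 0.430 in all 6 pairs of anterior and posterior controls. Unequal numbers were not compared, and controls of equal number also share an array set. The check therefore cannot tell pairing from a shared array set. The labels do not state pairing, so whether equal numbers pair the samples is not known. Between mutant and control posterior arrays the correlation ran from -0.222 to 0.157. The main fit was unpaired. The replicate block, an alternative, took equal numbers of all 3 groups as a block. Alternatives covered probe set choice, a filter on dim genes, scaling, variance models, array weights, array sets, covariates, a stricter threshold and leaving out each array.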

Additional observations from a re-analysis of the deposited data

Results flagged for a closer look

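A gap test (Dixon) was run on each of the 3 groups of the 32 barrier genes named by rule, 96 groups of 6 arrays, and 5 held an array apart from the rest; chance flags about 5% of groups. Ivl read 5.40 on posterior control array 1, where the other 5 arrays read 5.06 to 5.18. Klk13 read 5.24 on anterior control array 4, where the others read 5.85 to 5.99. Lce3b read 7.14 on mutant array 1 against 6.22 to 6.42, and Serpinb1a read 9.18 on the same array against 7.69 to 8.23. Tgm6 read 5.98 on posterior control array 6 against 5.80 to 5.85.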

How the results depend on the processing

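The 16 genes called for genotype kept their sign under each alternative that measured them. They were picked by calls on these same arrays, so much of that agreement is fixed in advance. The count of calls left the main value by more than 1.5 times in these settings: 4 without dim genes (of 22 tested, 18.2%, against 23.1% of all genes tested there), 5 with the array sets as a random block, 33 with mutant arrays 1 to 3 only, 0 with control arrays 1 to 3 only, 5 with control arrays 4 to 6 only, 9 with arrays 1 to 3 of every group and 8 at an adjusted p under 0.01. The 9 were 10% of the 90, against 9.59% of all genes, and the 8 were 8.89%, against 4.97%. Leaving out 1 array gave 13 to 24. The replicate block gave 19 (21.1%, against 13.7% of all genes). The calls were 87.5% higher, against 60% with mutant arrays 4 to 6 only and 50% with arrays 4 to 6 of every group. Over all genes the genotype count of 2449 became 1572 with the compared groups only, 588 with the random block, 4986 with mutant arrays 1 to 3, 135 with control arrays 1 to 3, 1008 with control arrays 4 to 6, 1607 with the muscle covariate and 905 at the stricter threshold, and 1512 to 2735 without 1 array. Of all genes called for genotype 57.5% were higher, against 40.5% with median centring and 45.4% with quantile normalisation; for region the shares were 44.5%, 71.2% and 55.2%.

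For region the 4 called genes became 8 with median centring (62.5% higher, against 25%). They became 20 with array weights (22.2%, against 18.4% of all genes) and 17 with the compared groups only (18.9%, against 11.8%). The replicate block gave 7, the random block 9 (10%, against 7.27%) and mutant arrays 4 to 6 gave 13 (14.4%, against 12.1%). Control arrays 1 to 3 gave 1 (1.11%, against 0.451%) and control arrays 4 to 6 gave 0. Arrays 1 to 3 of every group gave 1 (1.11%, against 0.813%). The epithelium covariate gave 7, the muscle covariate 0 and the stricter threshold 1 (1.11%, against 1.38%). Leaving out 1 array gave 2 to 10. The count was 2 without anterior control 3 or 5 or posterior control 6, and 10 without mutant 1. Over all genes the 695 calls became 3356 with array weights, 2151 with the compared groups only, 1322 with the random block, 2195 with mutant arrays 4 to 6, 82 and 16 with control arrays 1 to 3 and 4 to 6, 148 and 220 with arrays 1 to 3 and 4 to 6 of every group, 29 with the muscle covariate and 251 at the stricter threshold, and 389 to 1213 without 1 array.

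Reversed values were those of Elovl1 (-0.29) and Ugcg (-0.0094) for genotype with the most variable probe set, Lor for genotype with arrays 4 to 6 of every group (-0.55) and Ckm for region with the muscle covariate (-1.81). The cause was not tested. Low signal limits the dim genes, which may sit at background.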
